A study of Papaver somniferum with 12 samples.

Results

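Unigenes whose level set cultivar G of opium poppy (Papaver somniferum) apart from the cultivars Z, T and B2 are described here. A unigene is 1 of 61856 entries that the study counts apart from its non-redundant isoforms. Its level is given in RPKM, which scales the reads of a unigene by its length and by the size of the library. The members were chosen by their measured RPKM. A unigene was taken as higher in G when the lowest of the 3 G libraries was at least 1.5 times the highest of the 9 other libraries and the G mean was at least 2 RPKM. It was taken as lower in G when the highest G value was at most the lowest of the 9 others divided by 1.5 and the mean of the 9 was at least 2 RPKM. Unigenes that met the same rule for Z, T or B2 were dropped. This left 40 of 61856 unigenes, 14 higher and 26 lower in G.

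The libraries were made from total RNA of leaves at the filling stage, after the flowers have fallen, with 3 libraries for each of G, Z, T and B2. All 4 cultivars were bred at the institute of the authors and grown on its experimental plot, no treatment being named, and G is the one that the study describes as containing noscapine. The top leaf was sampled, and the 3 samples of a cultivar were collected independently. The study dates this stage by the days since flower fall, and gives no other age.

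Opium poppy makes benzylisoquinoline alkaloids from tyrosine. The pathway branches after reticuline, with 1 branch leading through thebaine to codeine and morphine and another through scoulerine and canadine to noscapine. Most genes of the noscapine branch lie side by side in a cluster in the genome of noscapine-making poppies, and poppies that make none can lack the cluster. Leaves carry latex-filled vessels in which these alkaloids are stored.

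The members could not be tied to these enzymes here. The functional annotation that the study made for its unigenes was not used here. The identifiers were compared with a RefSeq table of 91581 opium poppy genes, and 0 of 61856 matched. The table of levels holds no gene names either, so the 40 unigenes are given by identifier, and no role, sequence or genome position is given for any of them. For the same reason, leaf markers could not be checked. Levels are on a per-length scale, so values of different unigenes can be set side by side.

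The identifiers have the form PB, a locus number and a last number. Isoforms of 1 locus would share the locus number, and sister isoforms of the members were looked for by it. There were none, because the 61856 unigenes carried 61856 different locus numbers, and 0 locus numbers occurred more than once. Last numbers above 1 stood in 14 of the 40 members, and the last number was 1 in 65.0% of the members and in 70.6% of all unigenes. Isoforms of the same locus could therefore not be compared.

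Summed RPKM ran from 993016 to 1061092 by library, and 28977 to 31148 unigenes were at 1 RPKM or more. RPKM is already scaled by library size, so the closeness of the sums does not show that the libraries were alike in size. The study lists more clean bases for each G library than for any other library used here. Whether this bears on low or absent levels outside G was not tested. Between replicates of a cultivar, Pearson's r over the 33161 unigenes that reached 1 RPKM in at least 3 libraries, on the log2(RPKM + 1) scale, ran from 0.922 to 0.988, and the lowest value belonged to B2 replicates 2 and 3. B2 replicate 3 stood apart in the choice of the members as well. The study lists for this library the lowest RNA integrity and the lowest share of high-quality bases of the libraries used here. Whether either bears on its levels was not tested. Whether it holds RNA of B2 leaf alone was not tested either, so the main counts and calls that rest on it are also given without it. Fewer cells of a type and less RNA per cell cannot be told apart in whole leaves. Near-identical unigenes share reads, and the reference was assembled from another cultivar, B1, so a transcript with a different sequence in G could be listed low without a low RNA level. Neither was tested.

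Of 23086 unigenes with a G mean of at least 2 RPKM, the 14 higher members were 0.0606%. Of 23736 unigenes with a mean of at least 2 RPKM over the 9 other libraries, the 26 lower members were 0.11%. The rule itself fixed these shares. The same rule, with the same drop, gave 86 unigenes for Z (15 higher and 71 lower), 88 for T (22 and 66) and 1149 for B2 (803 and 346). Without B2 replicate 3, the counts were 55 higher and 29 lower for G, 15 and 55 for Z, 44 and 66 for T, and 1403 and 897 for B2. The place of G among the cultivars in the higher direction thus rested on that library, and the counts carry no test.

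The drop removed 61 of the 101 unigenes that met the rule for G, 7 higher and 54 lower. Of the 54, 51 had a value of 0 in every G library, and 50 had a 0 among the 9 other libraries. A highest G value of 0 and a lowest other value of 0 meet the rule as a tie, and 46 of the 54 also met the rule for B2 higher. Most of the dropped lower unigenes thus had their highest levels in B2. Of the 7 dropped higher unigenes, 5 met the rule for B2 lower. The highest of the 7, PB.21639.2, had 29.67, 49.77 and 33.05 RPKM in G, 18.23, 17.06 and 16.57 RPKM in Z, 7.47, 9.68 and 5.86 RPKM in T, and 2.44, 3.08 and 1.86 RPKM in B2. It was named after its values were seen.

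Ties at 0 also brought in 4 of the 40 members, and in these the groups overlapped. PB.61527.1 was listed at 0 in G replicates 1 and 2, at 12.84 RPKM in G replicate 3, and at 0 in the 9 other libraries, so a single library made it a member. PB.60653.1, PB.38489.1 and PB.16050.2 had no RNA listed in any G library, but also none in part of the others. PB.60653.1 was listed at 0 in T replicate 2 and B2 replicate 3 and had 0.76 to 6.72 RPKM in the 7 remaining libraries. PB.38489.1 was high in all 3 libraries of T, at 5.69, 5.35 and 5.64 RPKM, and in B2 replicate 3, at 6.36 RPKM, whereas Z had at most 0.02 RPKM and B2 replicates 1 and 2 were listed at 0. PB.16050.2 was listed at 0 in Z replicate 2 and T replicate 3 and at 0.06 RPKM in Z replicate 1, and had 2.66 to 8.14 RPKM in the 6 others. The remaining 36 members, 13 higher and 23 lower, had no overlap between the G libraries and the 9 others. The descriptions below are of these 36.

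Among the 13 higher members, the G mean ran from 2.03 to 1198 RPKM with a median of 6.28 RPKM, against a median G mean of 7.92 RPKM over all unigenes at 2 RPKM or more. A G mean under 10 RPKM was found in 8 of the 13. The median of all such unigenes also lay under 10 RPKM, so nothing is read from this count. Where the 9 other libraries were not all listed at 0, the G mean was 1.94 to 28.8 times the mean of the 9, with a median of 3.47 over 12 members. The lowest G value exceeded the highest of the 9 by a ratio of 1.51 to 2.51 in these 12. All values by library are in the plot of the unigenes higher in G.

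**Figure D1:**
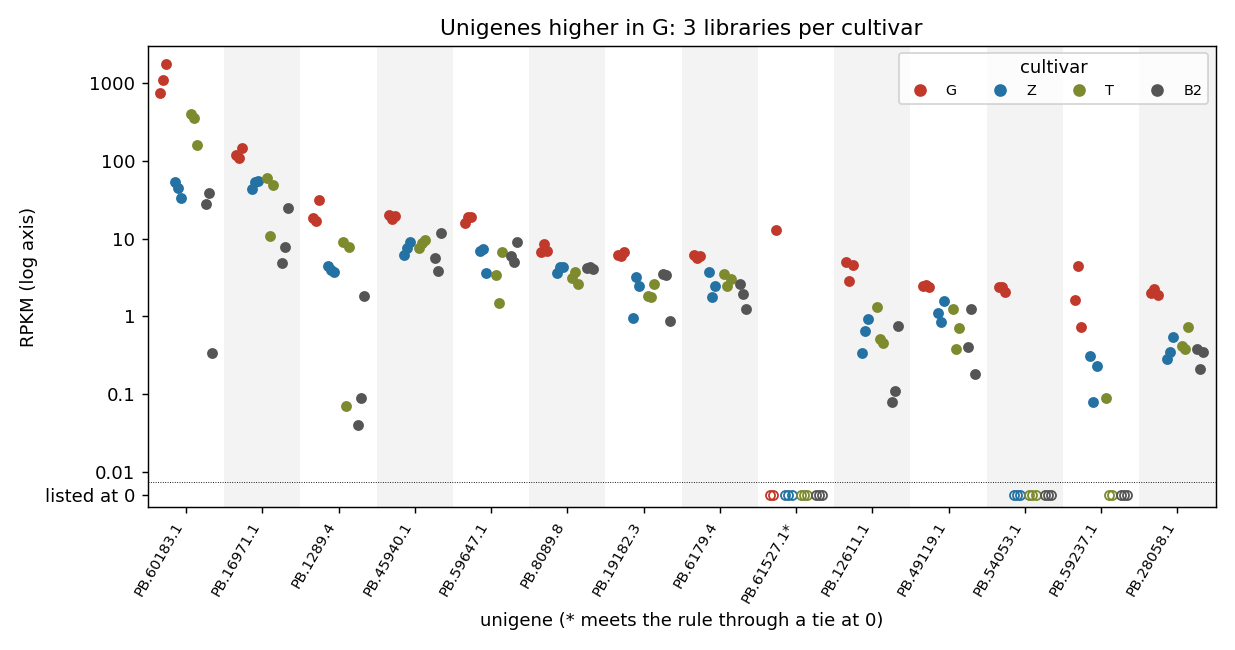
RPKM on a log axis of the 14 unigenes higher in G, ordered by G mean, with 1 point per library and 3 libraries for each of G, Z, T and B2. Open points at the bottom are values listed at 0. PB.60183.1 lies far above the rest, at 753 to 1761 RPKM in G, and PB.54053.1 is listed at 0 in all 9 other libraries.

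PB.54053.1 was the member with RNA in G alone. It had 2.42, 2.36 and 2.07 RPKM in G, whereas Z, T and B2 were listed at 0 in each of their libraries. No fold is given against values of 0. The level in G was near the floor of 2 RPKM, but it varied little between the 3 libraries.

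PB.60183.1 was the most abundant member, with 753.0, 1078.87 and 1760.97 RPKM in G. It had 52.65, 44.53 and 32.94 RPKM in Z, 396.62, 353.30 and 159.18 RPKM in T, and 28.15, 38.02 and 0.34 RPKM in B2. T was thus the nearest cultivar, with T replicate 1 at the top of the 9, and B2 replicate 3 lay far below its own group. The G mean was 9.75 times the mean of the 9. The G libraries differed by 2.34 times among themselves.

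PB.16971.1 was the second in level, with 118.49, 110.09 and 147.41 RPKM in G. It had 42.91, 52.90 and 55.25 RPKM in Z, 59.34, 10.92 and 49.12 RPKM in T, and 4.83, 7.74 and 25.03 RPKM in B2. Z and part of T formed a middle level, and T replicate 2 fell outside it. The G mean was 3.66 times the mean of the 9.

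PB.1289.4 had 18.22, 16.62 and 31.24 RPKM in G. The others were at 4.38, 3.99 and 3.77 RPKM in Z, 9.13, 0.07 and 7.84 RPKM in T, and 0.04, 0.09 and 1.85 RPKM in B2. As in PB.16971.1, T replicate 2 lay below the 2 other T libraries, and B2 was low with replicate 3 as its highest library. The G mean was 6.36 times the mean of the 9.

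Both PB.45940.1 and PB.59647.1 were at moderate levels in every library. PB.45940.1 had 20.35, 17.83 and 19.77 RPKM in G, 6.09, 7.64 and 8.97 RPKM in Z, 7.51, 8.87 and 9.5 RPKM in T, and 5.61, 3.80 and 11.81 RPKM in B2. PB.59647.1 had 15.80, 19.02 and 19.15 RPKM in G, 7.0, 7.45 and 3.63 RPKM in Z, 3.38, 1.49 and 6.64 RPKM in T, and 5.94, 5.05 and 8.93 RPKM in B2. B2 replicate 3 was the highest of the 9 in both, and the G mean was 2.49 and 3.27 times the mean of the 9.

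Among the members at low levels, the 3 other cultivars overlapped. PB.28058.1 had 2.01, 2.23 and 1.86 RPKM in G and 0.21 to 0.74 RPKM in the 9 others (median 0.38 RPKM). It had the widest ratio of the lowest G value to the highest other value, 2.51, among members whose other libraries were not all at 0. PB.12611.1 had 5.05, 2.89 and 4.53 RPKM in G and 0.08 to 1.32 RPKM in the others (median 0.51 RPKM), and the G mean was 7.28 times the mean of the 9.

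PB.59237.1 was the least even of the higher members within G. It had 1.63, 4.47 and 0.72 RPKM there, a spread of 6.21 times. In Z it had 0.31, 0.08 and 0.23 RPKM, in T it had 0.09 RPKM in replicate 1 and was listed at 0 in replicates 2 and 3, and in B2 it was listed at 0 in all 3. At such levels the largest fold of the higher members, 28.8, rests on values close to 0.

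PB.8089.8, PB.19182.3 and PB.6179.4 had steady levels within G. PB.8089.8 had 6.63, 8.45 and 6.99 RPKM in G and 2.64 to 4.37 RPKM in the others (median 4.07 RPKM), which made it the only higher member whose 9 other libraries lay within 2 times of each other. PB.19182.3 had 6.08, 6.06 and 6.70 RPKM in G and 0.88 to 3.52 RPKM in the others (median 2.46 RPKM). PB.6179.4 had 6.21, 5.66 and 6.0 RPKM in G and 1.24 to 3.72 RPKM in the others (median 2.47 RPKM). The remaining higher member, PB.49119.1, which the naming rule did not select, had 2.47, 2.54 and 2.41 RPKM in G, with other values of 0.18 to 1.57 RPKM.

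The highest of the 9 values came from T in 5 of the 12 higher members with RNA outside G, from B2 in 4 and from Z in 3. B2 had the lowest mean of the 3 other cultivars in 9 of the 12, T in 3 and Z in 0. Over all unigenes with a G mean of at least 2 RPKM, B2 was the lowest of the 3 in 34.9%, T in 28.0% and Z in 37.0%. With the B2 mean taken without replicate 3, B2 was the lowest in 8 of the 12 and T in 4, against 36.2% and 29.9% of all. These counts are descriptions with no test. The 3 G libraries themselves lay within 1.5 times of each other in 9 of the 13. For this spread and for the counts of the highest single value no share over all unigenes is given, so nothing is read from them.

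Among the 23 lower members, the mean of the 9 other libraries ran from 2.10 to 102.5 RPKM with a median of 4.18 RPKM, against a median of 7.78 RPKM over all unigenes at 2 RPKM or more. The G mean ran from 0.0133 to 43.4 RPKM, with a median of 0.967 RPKM. The mean of the 9 was 1.96 to 171 times the G mean, with a median of 3.96. Of the 23, 19 were above 0 in all 12 libraries and 4 had a G library listed at 0. The choice bears on these counts, since members with a tie at 0 are left out here. The drop also removed 51 lower unigenes listed at 0 in every G library. No share over all unigenes is given, so nothing is read from the counts.

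**Figure D2:**
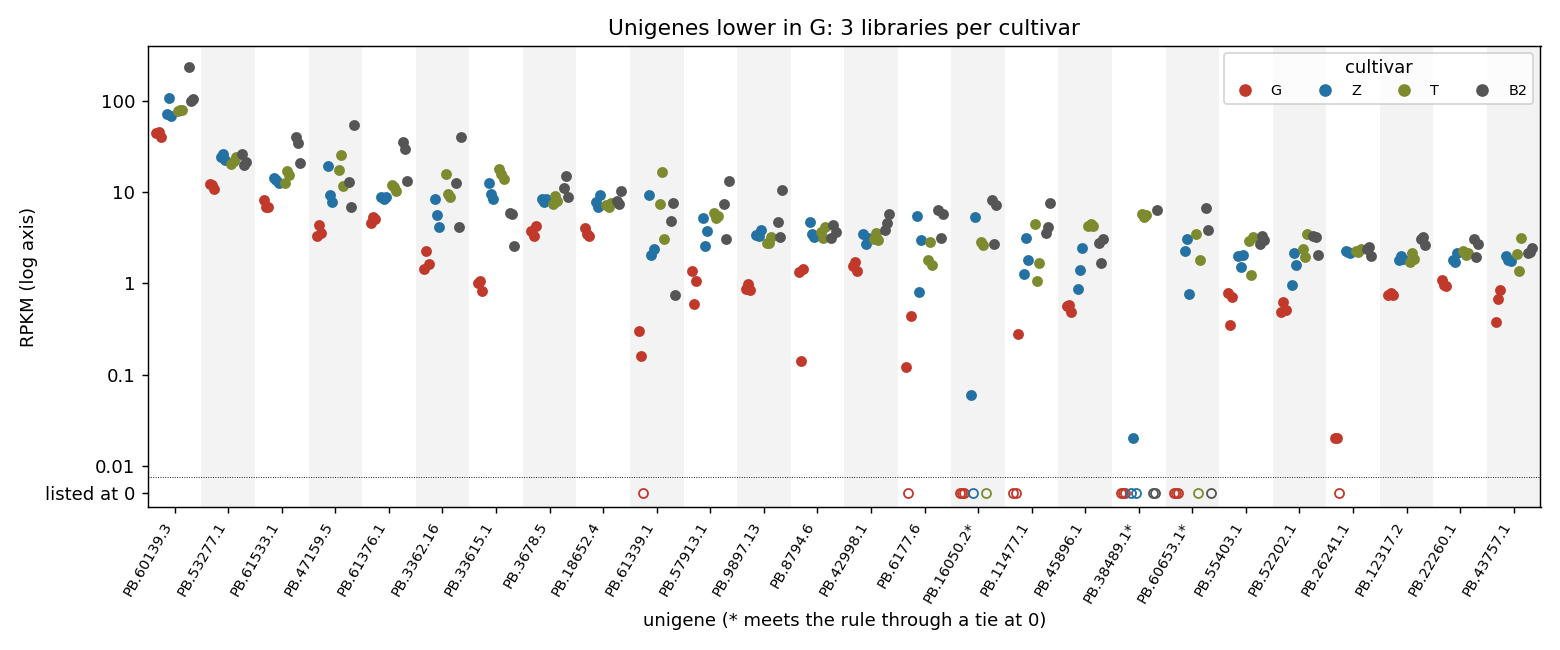
RPKM on a log axis of the 26 unigenes lower in G, ordered by the mean of the 9 other libraries, with 1 point per library and 3 libraries for each of G, Z, T and B2. Open points at the bottom are values listed at 0. PB.26241.1 has the widest gap, with G values of 0.02 RPKM or less and other values of 2.00 to 2.53 RPKM, and PB.60139.3 is the most abundant.

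PB.26241.1 was nearly absent from G and even in the other cultivars. It had 0.02 and 0.02 RPKM in G replicates 1 and 2 and was listed at 0 in G replicate 3. It had 2.29, 2.23 and 2.15 RPKM in Z, 2.27, 2.23 and 2.38 RPKM in T, and 2.39, 2.53 and 2.00 RPKM in B2. The 9 other libraries lay within 1.26 times of each other, the narrowest range of the lower members, and the lowest of them was 100 times the highest G value.

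The next widest separations were found in transcripts with uneven levels outside G. PB.11477.1 was listed at 0 in G replicates 1 and 2 and at 0.28 RPKM in G replicate 3. It had 1.3, 3.15 and 1.81 RPKM in Z, 4.42, 1.05 and 1.69 RPKM in T, and 3.57, 4.13 and 7.62 RPKM in B2. B2 lay above most of the other libraries.

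PB.61339.1 had 0.30 and 0.16 RPKM in G replicates 1 and 2 and was listed at 0 in G replicate 3. It had 9.22, 2.05 and 2.40 RPKM in Z, 7.49, 16.70 and 3.03 RPKM in T, and 4.81, 7.62 and 0.75 RPKM in B2. Its 9 other libraries spread over 22.3 times, the widest of the lower members, and B2 replicate 3 came closest to G. PB.9897.13 had 0.86, 0.99 and 0.85 RPKM in G and 2.75 to 10.42 RPKM elsewhere (median 3.28 RPKM), with B2 replicate 3 as its highest library.

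PB.33615.1 graded among all 4 cultivars. It had 1.00, 1.06 and 0.83 RPKM in G, 12.50, 9.47 and 8.41 RPKM in Z, 18.06, 15.90 and 13.95 RPKM in T, and 5.84, 5.79 and 2.54 RPKM in B2. The libraries of G, B2, Z and T did not overlap in this ascending order. The mean of the 9 was 10.7 times the G mean.

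The most abundant lower member was PB.60139.3. It had 44.62, 45.27 and 40.41 RPKM in G, 71.77, 106.86 and 68.78 RPKM in Z, 78.23, 78.75 and 79.04 RPKM in T, and 234.39, 99.00 and 105.42 RPKM in B2. Z and T overlapped, and B2 replicate 1 stood above all. The mean of the 9 was 2.36 times the G mean.

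PB.53277.1 differed little among the other cultivars. It had 12.39, 11.83 and 10.93 RPKM in G, 23.97, 26.06 and 22.67 RPKM in Z, 20.27, 21.71 and 24.10 RPKM in T, and 26.24, 19.99 and 21.39 RPKM in B2. The 9 others lay within 1.31 times of each other, and their mean was 1.96 times the G mean, the smallest fold of the lower members. PB.3678.5 was alike in having an even level in Z and T, with 3.74, 3.27 and 4.29 RPKM in G and 7.37 to 15.03 RPKM elsewhere (median 8.38 RPKM).

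In PB.61533.1 and PB.61376.1, B2 was the highest cultivar and G the lowest. PB.61533.1 had 8.16, 6.89 and 6.91 RPKM in G, 14.13, 13.45 and 12.48 RPKM in Z, 12.49, 16.94 and 15.44 RPKM in T, and 40.59, 34.42 and 20.99 RPKM in B2. PB.61376.1 had 4.62, 5.33 and 5.09 RPKM in G, 8.88, 8.34 and 8.77 RPKM in Z, 12.06, 11.30 and 10.24 RPKM in T, and 35.15, 29.51 and 13.31 RPKM in B2. In both, every B2 library lay above every library of Z and T, and B2 replicate 3 was the lowest of the 3.

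PB.47159.5 and PB.3362.16 showed the opposite behaviour of B2 replicate 3. PB.47159.5 had 3.27, 4.33 and 3.60 RPKM in G, 19.19, 9.23 and 7.72 RPKM in Z, 17.29, 25.63 and 11.79 RPKM in T, and 13.04, 6.87 and 54.89 RPKM in B2. PB.3362.16 had 1.43, 2.26 and 1.61 RPKM in G, 8.43, 5.59 and 4.13 RPKM in Z, 15.81, 9.55 and 8.82 RPKM in T, and 12.73, 4.15 and 39.89 RPKM in B2. In both, B2 replicate 3 was the highest of the 12 libraries, B2 replicate 2 was at or near the bottom of the 9, and Z replicate 1 was the highest of its group. B2 replicate 3 was the highest of the 9 in 7 of the 23 lower members, a count given without the share over all unigenes.

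The other 10 lower members without a tie were not selected by the naming rule and had means of 2.10 to 7.93 RPKM over the 9 libraries. PB.8794.6 was even outside G, at 3.15 to 4.65 RPKM, and uneven within it, at 1.34, 0.14 and 1.42 RPKM. PB.12317.2 had 0.74, 0.79 and 0.75 RPKM in G, the narrowest spread of a lower member within G, and 1.73 to 3.18 RPKM elsewhere. PB.6177.6 had 0.12 and 0.44 RPKM in G replicates 1 and 3, was listed at 0 in G replicate 2, and had 0.80 to 6.37 RPKM elsewhere. PB.57913.1, PB.18652.4, PB.43757.1, PB.22260.1, PB.55403.1, PB.42998.1 and PB.52202.1 made up the rest. Their highest G values were 0.62 to 4.05 RPKM, and their lowest values elsewhere were 0.96 to 6.90 RPKM.

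B2 had the highest mean of the 3 other cultivars in 18 of the 23 lower members, T in 3 and Z in 2. Over all unigenes with a mean of at least 2 RPKM over the 9 libraries, B2 was the highest in 45.8%, T in 29.6% and Z in 24.6%. Z had the lowest mean of the 3 in 15 of the 23, against 38.0% of all unigenes. With the B2 mean taken without replicate 3, B2 was the highest in 13 of the 23, T in 7 and Z in 3, against 46.6%, 30.9% and 22.5% of all, and Z was the lowest in 15, against 34.9%. The lowest single value of the 9 came from Z in 11 members, from T in 7 and from B2 in 5, and Z replicate 2 alone supplied 6. These counts are descriptions without a test. The 3 G libraries lay within 1.5 times of each other in 14 of the 23. No share over all unigenes is given for this spread or for the counts of the lowest single value, so nothing is read from them. Z replicate 2 also had the lowest summed RPKM of the libraries, 993016, which does not measure library size. The study lists more clean bases for it than for any other library outside G.

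At the edge of the rule, PB.45940.1 and PB.8089.8 were the higher members closest to a ratio of 1.5, at 1.51 and 1.52. Just outside were PB.23068.1, at 1.46, and PB.11853.19, at 1.4. PB.23068.1 had 3.05, 3.31 and 2.96 RPKM in G, and its highest other library, T replicate 2, had 2.03 RPKM. PB.11853.19 had 67.79, 65.89 and 66.13 RPKM in G, and its highest other library, B2 replicate 3, had 47.08 RPKM. Of the lower members, PB.45896.1 lay at 1.5, with 0.56, 0.58 and 0.49 RPKM in G and a lowest value elsewhere of 0.87 RPKM, in Z replicate 1. PB.60139.3 lay at 1.52. PB.25397.1, at 1.44, and PB.57415.1, at 1.4, fell just outside. Unigenes on both sides of the edge thus had similar ratios, and 9 of 13 higher and 16 of 23 lower members had a ratio under 2.

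The number of unigenes that met the rule depended on single libraries. The rule sets a lowest value against a highest value, so leaving out a library mostly raises the counts by construction. Without B2 replicate 3 there were 55 higher and 29 lower unigenes, among which were all 14 higher and 22 of the 26 lower members. Without T replicate 2 there were 26 higher and 44 lower, with 12 and 26 of the members. Without G replicate 2 there were 24 higher and 40 lower, with 12 and 26 of the members, and without G replicate 1 there were 42 lower, with all 26. The 8 other libraries, each left out in turn, gave 14 to 17 higher and 26 to 36 lower unigenes.

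**Figure D3:**
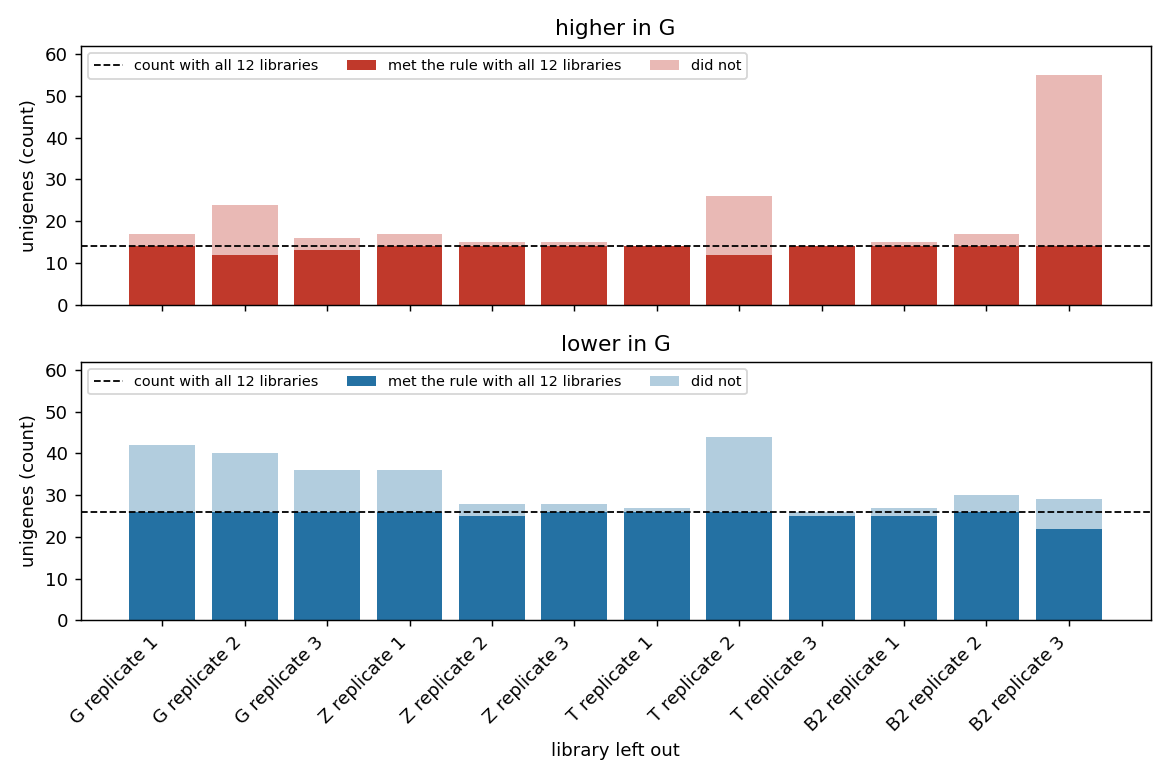
Number of unigenes that met the rule for G when 1 library was left out, higher in G above and lower in G below. The solid part of a bar counts those that also met it with all 12 libraries, and the dashed lines mark 14 and 26. The bar without B2 replicate 3 reaches 55 in the upper panel, and the bar without T replicate 2 reaches 44 in the lower panel.

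B2 replicate 3 alone kept 41 unigenes out of the higher members, with G means of 2.18 to 66.6 RPKM. In 38 of the 41, B2 replicate 3 was above the highest G library, and in 27 it was at least 5 times both other B2 libraries. The median of its value over the G mean was 1.75. In these 27, the replicates of B2 thus differed widely. The others included transcripts with substantial levels in all libraries, such as PB.11853.19, which is given above at the edge of the rule and had 23.64 to 42.87 RPKM in the 8 remaining libraries.

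PB.327.7, named after its values were seen, had 51.06, 56.37 and 59.99 RPKM in G and 65.41 RPKM in B2 replicate 3. It had 0.04, 0.04 and 0.19 RPKM in Z, 0.10, 2.17 and 0.05 RPKM in T, and 0.19 and 0.04 RPKM in B2 replicates 1 and 2. PB.60186.1, likewise named afterwards, had 26.52, 30.76 and 25.57 RPKM in G, 56.43 RPKM in B2 replicate 3 and 0.44 to 1.29 RPKM in the other 8. In 10 of the 41, all 8 others were below 0.1 RPKM, and in 5 of these they were all listed at 0. The 10 had G means of 2.37 to 5.54 RPKM and 4.08 to 12.44 RPKM in B2 replicate 3. These 10 were thus nearly restricted to G and B2 replicate 3, and to G only if that library is set aside. Other libraries acted alike, as T replicate 2 alone kept out 14 higher and 18 lower unigenes, and G replicate 2 alone 12 and 14. PB.55119.1, named after its values were seen, had 4.91, 5.06 and 4.87 RPKM in G and 10.15 RPKM in T replicate 2. It was listed at 0 in every other library.

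It was next asked which members also differed among Z, T and B2. The rule set G against the 9 other libraries, but the drop took out unigenes in which Z, T or B2 stood apart, most often B2. The number of members called among these cultivars was thus set in part by the choice, and nothing is read from its share of the members. The values were compared as log2(RPKM + 1) with limma over these 33161 unigenes, and a difference was called where the adjusted p was below 0.05 and the log2 difference reached 1 in size. Of the 40 members, 38 were tested, 12 higher and 26 lower in G. PB.61527.1 and PB.59237.1 did not pass the filter. PB.54053.1, PB.28058.1 and PB.12611.1 passed it only with their G libraries, so that 35 members reached 1 RPKM in at least 3 libraries of the other cultivars, 9 higher and 26 lower in G.

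Between T and B2, 4 of 38 members (10.5%) were called, against 7.05% of all tested unigenes. Between Z and B2, 4 of 38 (10.5%) were called, against 8.17% of all. Between Z and T, 1 of 38 (2.63%) was called, against 0.754% of all. At least 1 of the 3 comparisons called 6 of the 38 members, against 10.2% of all tested unigenes. Without B2 replicate 3, limma called 6 members between T and B2, 3 between Z and B2 and 3 between Z and T. The shares of all tested unigenes called in that fit are not given here, so nothing is read from these changes. The comparisons share libraries, so their calls are not independent of each other.

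**Figure D4:**
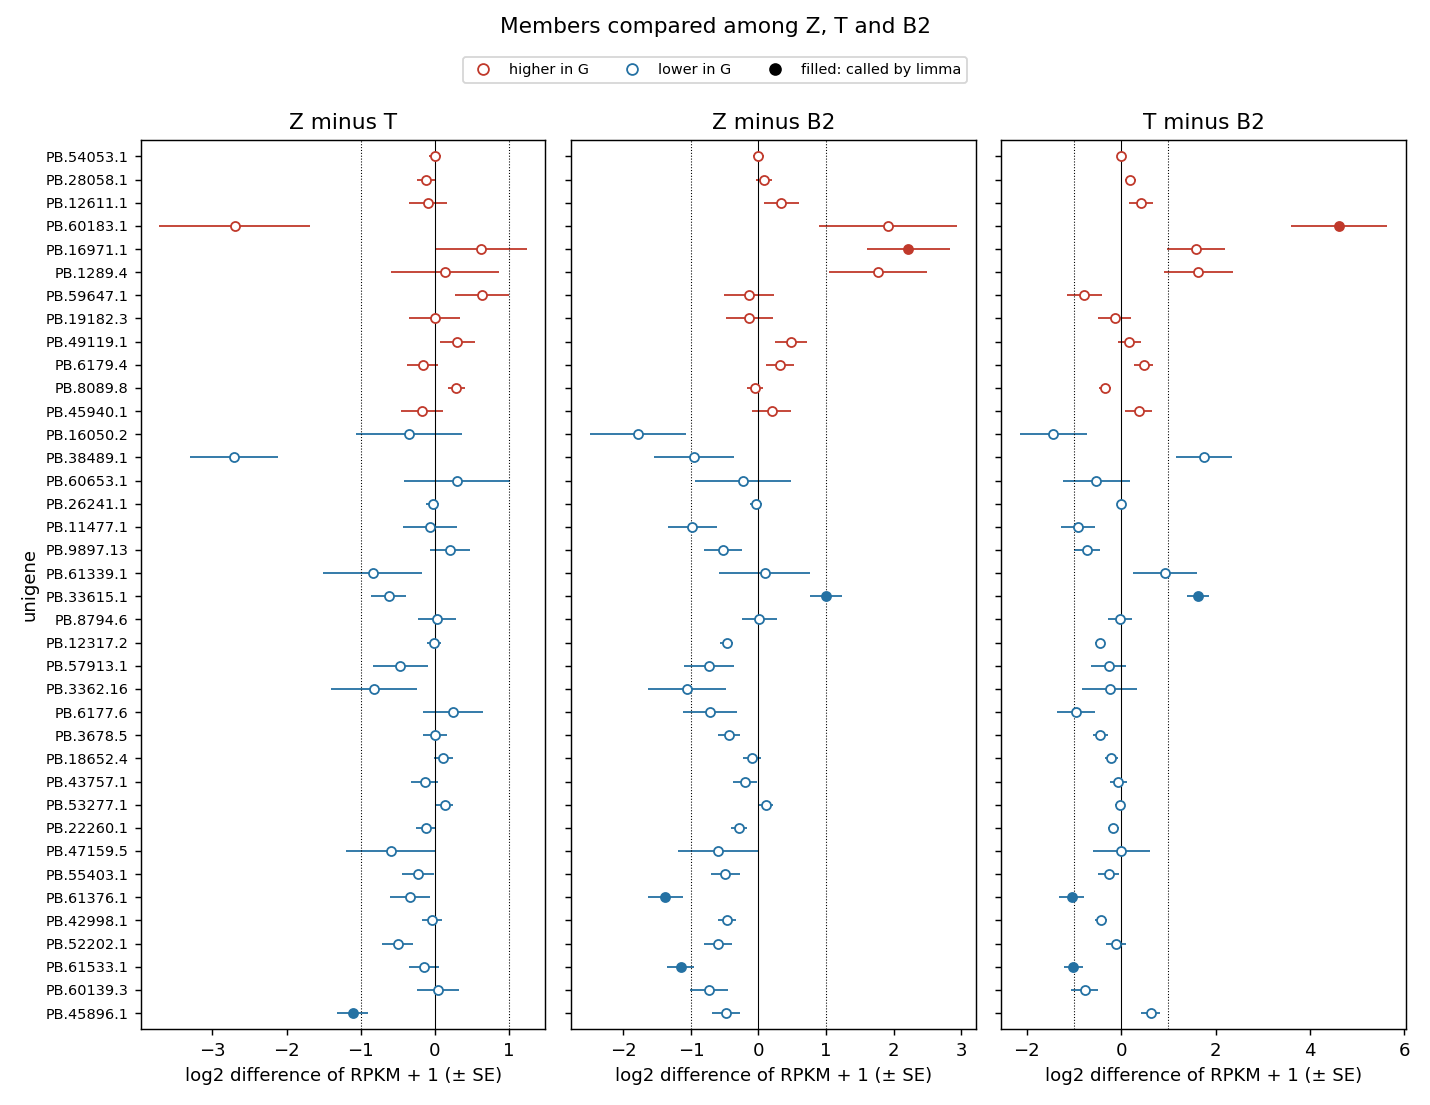
Log2 differences of RPKM + 1 for the 38 tested members between Z and T, Z and B2, and T and B2, with the standard error from limma (n = 3 libraries per cultivar). Filled points passed the call and the dotted lines mark a difference of 1 in size. The filled points are 1, 4 and 4 in the 3 panels, and PB.60183.1 has the largest called difference, 4.62 between T and B2.

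Of the higher members, PB.60183.1 was higher in T than in B2, by a log2 difference of 4.62 (SE 1.02, limma adjusted p = 0.00904), and all 3 T libraries lay above the 3 of B2. The difference kept its call under all 18 alternatives, at 3.07 to 5.50. Among these alternatives, the adjusted p alone only lifts the size threshold and so cannot lose a call. The difference was 3.07 without B2 replicate 3, which had 0.34 RPKM. PB.16971.1 was higher in Z than in B2, by 2.22 (SE 0.613, limma adjusted p = 0.0239). It lost the call when any library of Z, B2 replicate 1 or B2 replicate 2 was left out, and its log2 difference was 1.76 to 2.84 over all 18 alternatives. Between Z and T, limma called 0 of the 12 higher members, and 2 had an unadjusted p under 0.05. Of these 12, only 9 reached 1 RPKM in at least 3 libraries of the other cultivars.

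Of the lower members, PB.33615.1 was higher in T than in B2, by 1.62 (SE 0.236, limma adjusted p = 0.00072), and higher in Z than in B2, by 1.01 (SE 0.236, limma adjusted p = 0.0109). The first call held under all alternatives, and the second was lost without B2 replicate 3 and without Z replicate 1. PB.61376.1 was lower in Z than in B2, at -1.38 (SE 0.265, limma adjusted p = 0.00374), under all alternatives. In T it was lower than in B2 as well, at -1.04 (SE 0.265, limma adjusted p = 0.0186). PB.61533.1 was lower in Z than in B2, at -1.15 (SE 0.203, limma adjusted p = 0.00214), and lower in T than in B2, at -1.01 (SE 0.203, limma adjusted p = 0.00542).

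The 2 differences between T and B2 in PB.61376.1 and PB.61533.1 lay close to the threshold of 1. Both calls were lost after median-ratio scaling and without B2 replicate 1 or B2 replicate 2. That of PB.61376.1 was also lost without T replicate 3, and that of PB.61533.1 without T replicate 1. Between Z and B2, PB.61533.1 lost its call without B2 replicate 1.

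PB.45896.1 was the member called between Z and T. It had 0.87, 1.39 and 2.42 RPKM in Z, 4.23, 4.52 and 4.27 RPKM in T, and 2.77, 1.68 and 3.10 RPKM in B2, so that Z came closest to G. The log2 difference of Z and T was -1.11 (SE 0.208, limma adjusted p = 0.0286), with every library of Z below every library of T. It lost the call without a filter on low values and in 7 of the 12 fits that each left out 1 library, namely those without G replicate 1 or 3, without any library of T, and without Z replicate 1 or 2.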

How the data were processed

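Leaf RNA of 4 cultivars was sequenced as paired-end Illumina libraries. The authors filtered the reads for quality, aligned them by HISAT2 2.05 to unigenes assembled by long-read (PacBio) sequencing of B1, and estimated levels with RSEM. The deposited RPKM values have 2 decimals, and the methods name the same value after fragments. All columns were mapped to samples by the library codes in the labels. RPKM does not state read numbers. Among values of 0.1 to 0.5 RPKM, no common step was found. In all 66 library pairs the commonest ratio was 1, held by at most 5.57% of the unigenes. The read number behind a value was thus not recovered, and no counting interval is given. The clean bases that the study lists by library were largest in the G libraries and were not used here.

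The members and lists were chosen with earlier results of these data known, and the rule used the contrast of G with all others, so no test of G is given. Unigenes that reached 1 RPKM in 3 or more libraries were compared as log2(RPKM + 1), a scale that understates changes at low levels, by limma 3.58.1 (R 4.3.3; empirical Bayes with a mean trend, two-sided, Benjamini-Hochberg adjustment over all 33161 unigenes). All 12 libraries entered 1 fit with cultivar as the factor. The fit and the rule were tested on simulated data. Named members were the 8 with the widest ratio and the 8 with the highest level per direction, 2 unigenes on each side of the fold of 1.5, and members called among Z, T and B2. A planned test of sister unigenes had no unigenes to test. Samples of a cultivar were collected independently, and whether they were single plants is not given in the sources used here. Replicate values were compared, and at most 0.537% of values at 1 RPKM or more were equal in a pair of replicates. Alternatives were another fold, level, pseudocount, filter and scaling, no drop, the adjusted p alone, a replicate block and each library left out. Ties at 0 not counted, and the order of Z, T and B2 without B2 replicate 3, were alternatives chosen after seeing the data. Python 3.11.15, numpy 2.4.6, pandas 2.3.3 and matplotlib 3.10.9 were used.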

Additional observations from a re-analysis of the deposited data

How the results depend on the processing

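The 5 counts were recomputed under each alternative, and 64 of the 92 values stayed within 1.5 times. For the 14 higher and 26 lower members, a fold of 2 gave 5 and 11, and a fold midway between 1 and 1.5 gave 29 and 41, as a stricter and a looser threshold do by construction. A mean of 1 RPKM gave 40 lower, a mean of 5 RPKM gave 11 lower, and without the drop there were 80 lower. Ties at 0 not counted gave 14 higher, of which 13 were members, and 23 lower. Leaving out each library gave 14 to 55 higher and 26 to 44 lower.

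Among Z, T and B2, leaving out each library gave 0 to 3 members called between Z and T, 2 to 5 between Z and B2 and 2 to 6 between T and B2. Without a filter on low values limma called 0 between Z and T, with 6 at an unadjusted p under 0.05, and after median-ratio scaling 2 between T and B2. After the scaling, the log2 differences that lost the call were -0.987 (PB.61376.1) and -0.952 (PB.61533.1), just under 1 in size. Without the filter, PB.45896.1 kept its log2 difference of -1.11, but its limma adjusted p was 0.0524. The cause of the other changes was not tested. Of 162 values of the 9 called differences, 138 kept the call, 24 lost it and 0 reversed. Those under the adjusted p alone kept it by construction. Whether the replicate numbers pair the libraries was not settled. Of 18 pairs with the same number, 6 had correlated deviations over 0.1 (-0.10 to 0.19), all of them with a G library. G replicate 2 had 0.19, 0.14 and 0.14 with replicate 2 of Z, T and B2. Pairs with different numbers reached at most 0.11. With the replicate block the counts were 1, 4 and 4, as without it. Alternatives for sister unigenes were not run, since there were none.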
